A study of Mus musculus with 8 samples.

Results

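Translation initiation factor genes were compared between livers with and without Cre in an autoimmune hepatitis model. They are the rows of the expression table whose symbol starts with Eif and a digit from 1 to 6, leaving out the eIF2 kinases (names starting with Eif2ak), and there were 50 of them among 13703 rows. Both groups carried loxP-flanked Bicd2 (Bicd2fl/fl), a dynein adaptor gene. Alb-Cre Bicd2fl/fl mice also carried a Cre recombinase driven by the albumin promoter, which is active in hepatocytes, and Alb-WT Bicd2fl/fl mice served as the comparison group, with 4 libraries each. All mice had been immunised intraperitoneally with S-100, a soluble liver fraction mixed with complete Freund's adjuvant. They had 3 weekly injections of 2.5 mg, and livers were harvested 2 weeks after the final injection. No liver without S-100 was analysed here, the labels give no age or sex, and the RNA came from whole liver, so other cell types than the one with Cre contributed. The labels do not state that each library is a separate animal, so the p-values describe sample-to-sample spread that may be technical.

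Initiation brings a ribosome to the start codon of a messenger RNA. The eIF2 trimer carries the initiator transfer RNA, and eIF2B reloads it with GTP, a step that is blocked when an eIF2 kinase phosphorylates the alpha subunit. The eIF3 complex organises the small ribosomal subunit, and the eIF4 factors bind the cap and unwind the leader. In the liver, a tissue with high output of secreted protein, these steps are controlled by nutrients, by endoplasmic reticulum stress and by infection.

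Expression was measured as FPKM, fragments per kilobase of gene, scaled to the library total, from 32524927 to 38893858 fragments on listed genes per library. Bicd2 separated the groups as labelled, with a log2 fold change of -1.24 (limma adjusted p = 7.25e-05). Alb-Cre replicate 4 stood apart: its Pearson correlation across genes was 0.958 to 0.960 with the other Alb-Cre libraries and 0.974 to 0.977 with the Alb-WT libraries. Hepatocyte markers were abundant in all 8 libraries. They summed to 41734.48 to 45052.34 FPKM in 7 libraries and to 32588.13 FPKM in Alb-Cre replicate 4, with Alb alone at 19621 to 27571 FPKM. Of the 10 markers, Asgr1 was called higher in Alb-Cre (log2 fold change 0.29, limma adjusted p = 0.0288). Tat (-0.46, limma adjusted p = 0.00399) and Cyp2e1 (-0.37, limma adjusted p = 0.0140) were called lower, and 7 were not called. Of all genes tested, 8.48% were called higher and 23.3% lower. Without Alb-Cre replicate 4, 4 of the 10 hepatocyte markers were called higher and 5 lower, where 15.2% and 46.1% of all genes were. Kupffer cell markers summed to 186.58 to 195.51 FPKM in Alb-Cre replicates 1 to 3, to 535.86 FPKM in replicate 4 and to 586.47 to 625.16 FPKM in Alb-WT, and all 8 were called lower. In whole liver, fewer cells of a type and less RNA per cell cannot be told apart. The main values that rest on replicate 4 are therefore given with and without it.

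The promoters of 5 of the 8 initiation factor genes that passed the test are shown as the 150 bases before the RefSeq start (build GRCm38.p6, plus strand). These 5 had a promoter entry with a single start. Eif3i and Eif4e3 had no entry and are absent from the motif counts below, and Eif5a had several starts. Capitals mark matches to the ETS core (CCGGAA or TTCCGG) and the GC box (GGGCGG or CCGCCC), and overlapping matches run together. The first 3 genes were higher in Alb-Cre and the other 2 lower.
Eif2d, chr1:131153057-131153206: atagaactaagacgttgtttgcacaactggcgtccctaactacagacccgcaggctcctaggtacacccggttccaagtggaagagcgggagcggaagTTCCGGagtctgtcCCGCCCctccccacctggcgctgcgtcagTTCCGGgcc
Eif3j1, chr2:122028430-122028579: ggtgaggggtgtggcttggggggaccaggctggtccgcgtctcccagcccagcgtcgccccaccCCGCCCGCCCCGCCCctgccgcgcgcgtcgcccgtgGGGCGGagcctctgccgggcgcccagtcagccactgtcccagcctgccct
Eif3l, chr15:79075073-79075222: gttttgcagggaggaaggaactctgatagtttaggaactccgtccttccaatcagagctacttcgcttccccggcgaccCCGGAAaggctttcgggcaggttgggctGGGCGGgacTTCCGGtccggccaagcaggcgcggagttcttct
Eif4b, chr15:102073623-102073772: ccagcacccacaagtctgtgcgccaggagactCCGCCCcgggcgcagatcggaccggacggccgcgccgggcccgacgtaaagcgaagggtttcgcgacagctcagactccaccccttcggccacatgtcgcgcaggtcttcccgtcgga
Eif4a2, chr16:23107318-23107467: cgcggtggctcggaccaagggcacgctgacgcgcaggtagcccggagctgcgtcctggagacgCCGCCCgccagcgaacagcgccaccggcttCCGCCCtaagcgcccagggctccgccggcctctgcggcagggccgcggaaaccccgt

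These windows were rich in G and C, at 61.3%, 79.3%, 60.0%, 69.3% and 76.0% in the order shown. RefSeq promoters were matched for 39 of the 50 genes, and both strands of the 250 bases before each start were searched. A gene counted if any of its starts had a match. Eif5a had 6 starts, and so more windows in which a match could occur. A GC box stood in 30 of the 39 (76.9%), against 35.4% of 27025 mouse genes. It stood in the 5 promoters shown and before some start of Eif5a. The ETS core stood in 16 (41.0%, against 13.6%), among them Eif2d, Eif3l and Eif5a of the genes that rose and Eif4a2 of those that fell. The E-box CACGTG stood in 9 (23.1%, against 6.9%), including Eif5a. The cyclic AMP response element TGACGTCA stood in 0 of 39 (against 1.8%) and the ATF4 composite element (TGATGCAA or TTGCATCA) in 0 of 39 (against 0.9%). Both of these elements were rare in all genes, so 0 of 39 says little. The 27025 genes were not limited to expressed genes or matched for G and C. Whether the higher shares are particular to initiation factor genes was therefore not tested. A match describes the letters of a window and is not a measured binding site.

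Few initiation factor genes differed by genotype, and the largest differences were modest. Of the 50 genes, 48 passed the filter (an average of 0.5 FPKM or more) and were tested with limma on log2(FPKM + 1). Eif3i, Eif3j1, Eif3l, Eif2d and Eif5a rose in Alb-Cre, Eif4b, Eif4a2 and Eif4e3 fell, and 40 did not pass at an adjusted p of 0.05. The 5 that rose were 10.4% of those tested, where 8.48% of all 11077 genes rose, and the 3 that fell were 6.2%, where 23.3% of all genes fell. The share that rose was thus near that of all genes, and the share that fell was below it. The values of the groups did not overlap for 6 genes that were higher in Alb-Cre (9.27% of all genes) and for 2 that were lower (21.4% of all genes). The median log2 fold change was 0.01 over the tested initiation factor genes and -0.13 over all genes tested. This contrast was smaller among better expressed genes. With a filter of at least 5 FPKM the medians were 0.012 and -0.035. The share of lower genes among all calls was then 55.7%, against 73.3% with the filter used here.

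**Figure D1:**
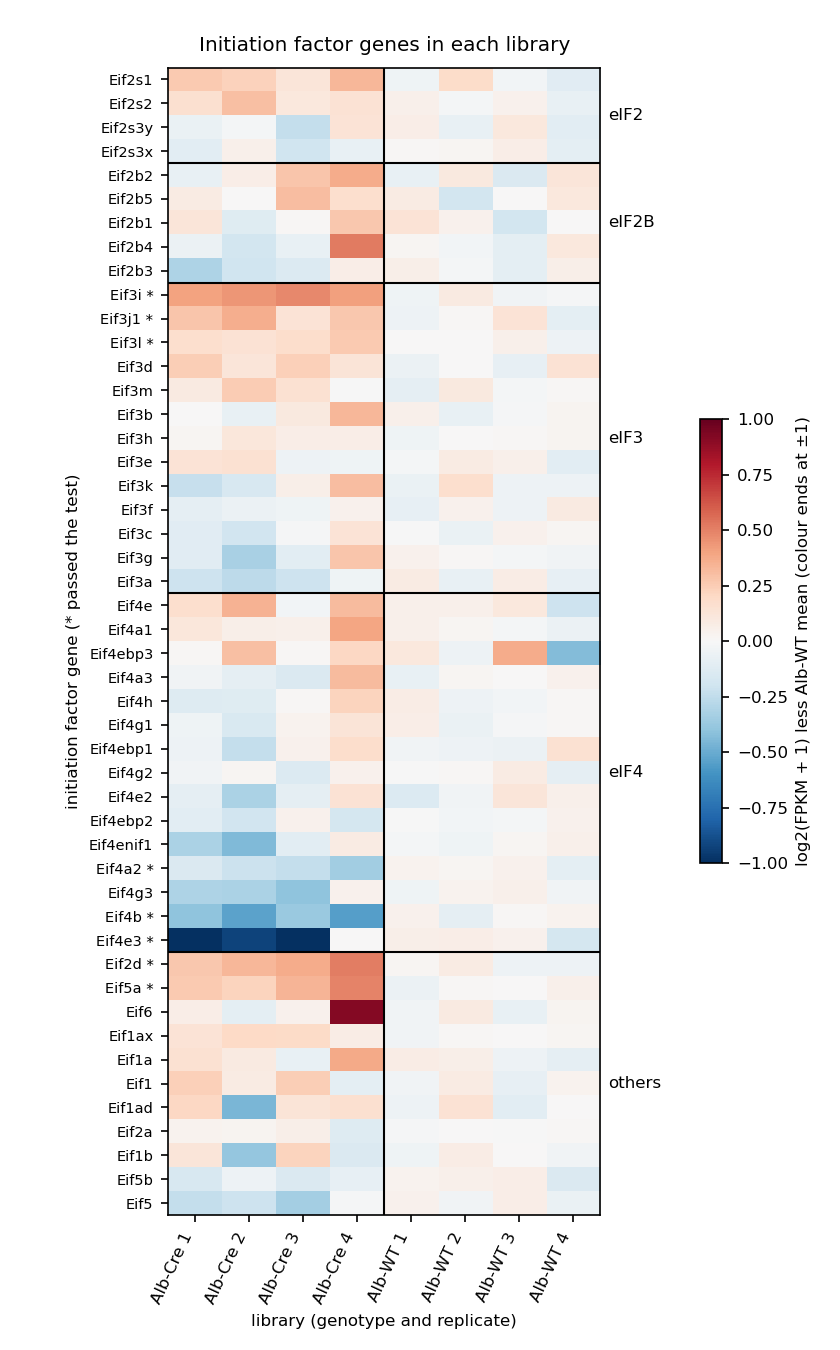
Each row is an initiation factor gene and each column a library, with colour giving log2(FPKM + 1) less the Alb-WT mean of that gene (red higher, blue lower). Eif3i is red in all 4 Alb-Cre libraries and Eif4b blue in all 4, whereas Eif4e3 is deep blue in Alb-Cre replicates 1 to 3 but not in replicate 4, and Eif6 deep red only in replicate 4.

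Alb-Cre replicate 4 set many of these rows apart. It was the highest of its group for 28 of the 48 genes, the lowest for 6 and within the range of replicates 1 to 3 for 14. Its median deviation from the mean of Alb-Cre replicates 1 to 3 was 0.18 on the log2 scale over these genes and 0.17 over all genes tested. Without it, 11 initiation factor genes were called higher (15.2% of all genes were) and 9 lower (46.1% of all genes were), among them the 8 above. The 12 added were Eif2s1, Eif2s2, Eif3d, Eif3m, Eif1 and Eif1ax, which were higher, and Eif2b3, Eif3a, Eif3g, Eif4g3, Eif4enif1 and Eif5, which were lower. Without replicate 4 the median log2 fold change was -0.03 over the initiation factor genes and -0.16 over all genes tested.

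Scaling between libraries moved the counts as well. Rescaling to a common FPKM sum left 2 genes higher (5.62% of all genes) and 3 lower (27.2%). Median-of-ratios scaling gave 15 higher (15.6% of all genes) and 2 lower (15.0%), quantile normalization 7 higher (14.0%) and 3 lower (13.3%), and a correction for gene length 12 higher (12.6%) and 2 lower (13.6%). The median of all genes was -0.19, -0.01, 0.02 and -0.01 under these scalings, and that of the initiation factor genes was -0.07, 0.16, 0.06 and 0.11. In each of them the median initiation factor gene lay above the median gene.

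The eIF2 trimer did not pass the test in any subunit. Eif2s1 encodes the alpha subunit that the stress kinases phosphorylate. Its level was 8.98, 8.77, 8.08 and 9.47 FPKM in Alb-Cre and 7.10, 8.46, 7.16 and 6.72 FPKM in Alb-WT, so a single Alb-WT library reached into the Alb-Cre range (log2 fold change 0.24, SE 0.08, limma adjusted p = 0.0533). Eif2s2, the beta subunit, was at 14.7, 16.2, 14.0 and 14.5 FPKM in Alb-Cre and 13.5, 12.8, 13.4 and 12.3 FPKM in Alb-WT. Every Alb-Cre value lay above every Alb-WT value, yet the difference did not pass either (0.18, SE 0.07, limma adjusted p = 0.0651). Both were called higher without Alb-Cre replicate 4 (limma adjusted p = 0.0373 and 0.0224).

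The gamma subunit has an X-linked and a Y-linked gene in the mouse. Eif2s3x ranged from 8.09 to 9.79 FPKM in Alb-Cre and from 8.74 to 9.94 FPKM in Alb-WT (log2 fold change -0.08, limma adjusted p = 0.398). Eif2s3y ranged from 10.7 to 14.1 FPKM and from 11.8 to 13.9 FPKM (-0.05, limma adjusted p = 0.707). The Y-linked copy was thus expressed in all 8 libraries, and its ratio to the X-linked copy was 1.40 ± 0.134 in Alb-Cre and 1.36 ± 0.0642 in Alb-WT (SD, n = 4 each, exact permutation p = 0.686). The alpha and beta genes leaned higher and both gamma genes slightly lower, which gave the trimer a median log2 fold change of 0.07. It was -0.02 with a common FPKM sum, 0.12 with quantile normalization, 0.22 with median-of-ratios scaling and 0.21 with the gene length correction.

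The guanine nucleotide exchange factor eIF2B had 0 of 5 subunits called in either direction, and its median log2 fold change was 0.07. That median was -0.01 with a common FPKM sum, 0.17 with quantile normalization, 0.22 with median-of-ratios scaling and 0.11 with the gene length correction. Eif2b1, Eif2b2 and Eif2b5 had log2 fold changes of 0.07, 0.16 and 0.14, or 0.003, 0.09 and 0.13 without Alb-Cre replicate 4. Eif2b4, the delta subunit, was at 9.69, 8.78 and 9.55 FPKM in Alb-Cre replicates 1 to 3, at 15.0 FPKM in replicate 4 and at 10.2, 9.89, 9.41 and 11.0 FPKM in Alb-WT. Only replicate 4 lay outside the Alb-WT range on the high side. The whole-group difference was 0.05 (limma adjusted p = 0.800), and it was -0.11 without replicate 4 (limma adjusted p = 0.171). Eif2b3, the gamma subunit and the lowest expressed of the 5, ranged from 0.893 to 1.13 FPKM in Alb-Cre replicates 1 to 3 and from 1.19 to 1.44 FPKM in Alb-WT. With replicate 4 at 1.46 FPKM the difference was -0.14 (limma adjusted p = 0.243), and without it -0.21 (limma adjusted p = 0.0264).

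In eIF3, 3 of the 13 tested subunit genes rose (23.1%, where 8.48% of all genes rose) and none fell (23.3% of all genes fell). Eif3i, a WD-repeat subunit of the mobile module near the messenger RNA entry side, was at 18.9, 19.4, 20.0 and 19.0 FPKM in Alb-Cre and 13.6, 15.0, 13.7 and 13.9 FPKM in Alb-WT. The groups were far apart for their spread, with means of 19.3 ± 0.502 and 14.1 ± 0.663 FPKM (SD, n = 4 each). The log2 fold change was 0.43 (SE 0.06, 95% interval 0.30 to 0.56, limma adjusted p = 0.00164). It was called in all 18 alternative analyses, at 0.35 to 0.59, and no other gene of the GENCODE M21 annotation overlaps its exons. Replicate 4 did not depart from its group here, at 1686 to 2755 fragments per library.

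Eif3l, part of a peripheral pair of subunits with Eif3k, was at 20.7, 20.4, 20.9 and 22.1 FPKM in Alb-Cre and 18.3, 18.3, 19.0 and 17.6 FPKM in Alb-WT. The groups did not overlap, and the rise was small (log2 fold change 0.19, SE 0.06, limma adjusted p = 0.0342). It was called in 9 of 18 alternatives, and lost with a common FPKM sum (adjusted p = 0.295) and on leaving out any library other than Alb-Cre replicate 4 (up to 0.0848). Eif3k itself was at 17.3 ± 3.17 FPKM in Alb-Cre and 17.2 ± 1.5 FPKM in Alb-WT (SD, n = 4 each), with a log2 fold change of -0.01.

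Eif3j1, a loosely bound subunit, was at 10.3, 11.0, 9.23 and 10.2 FPKM in Alb-Cre and 7.99, 8.39, 9.23 and 7.68 FPKM in Alb-WT. The third library of each group was at nearly the same level, and the others were separated (log2 fold change 0.26, SE 0.08, limma adjusted p = 0.0322). The call held in 11 of 18 alternatives and was lost with a common FPKM sum (adjusted p = 0.130) and without Alb-Cre replicate 1 or 2 or Alb-WT replicate 1, 2 or 4 (up to 0.0863). Its value is uncertain for another reason: the coding sequences of Eif3j1 and Eif3j2 are 99.7% identical, with an identical run of 781 bases, so the counting could split fragments between them. A further 19.0% of its merged exon length overlaps Spg11 on the opposite strand. Eif3j2 was listed at 0.0865 to 0.284 FPKM, from 8 to 25 fragments, and was not tested.

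The other eIF3 genes moved both ways. Eif3h, the most abundant eIF3 gene, was at 67.8 ± 1.79 FPKM in Alb-Cre and 64.7 ± 1.31 FPKM in Alb-WT (SD, n = 4 each, log2 fold change 0.07). Eif3a, the large scaffold subunit, was at 17.2, 16.5, 17.2 and 19.4 FPKM in Alb-Cre and 21.2, 19.0, 21.1 and 18.9 FPKM in Alb-WT. Alb-Cre replicates 1 to 3 lay below all Alb-WT libraries and replicate 4 among them, and the difference was -0.18 with replicate 4 (limma adjusted p = 0.0830) and -0.22 without it (limma adjusted p = 0.00692). Eif3g, which forms a module with Eif3b and Eif3i, was at 27.1, 23.3 and 27.3 FPKM in Alb-Cre replicates 1 to 3, 35.8 FPKM in replicate 4 and 28.6 to 30.4 FPKM in Alb-WT. Replicates 1 to 3 again lay below all Alb-WT libraries and replicate 4 above them (-0.07, limma adjusted p = 0.667, and -0.18 with an adjusted p of 0.0258 without it). Eif3d, a subunit that can contact the cap, had a log2 fold change of 0.18 (limma adjusted p = 0.0789), but 43.3% of its merged exon length overlaps an antisense gene, and the strand setting of the counting is not given in the sources used here. Eif3b, Eif3c, Eif3e, Eif3f and Eif3m lay between -0.04 and 0.12. The eIF3 median was 0.07, -0.02 with a common FPKM sum, 0.05 with quantile normalization, 0.23 with median-of-ratios scaling and 0.17 with the gene length correction.

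**Figure D2:**
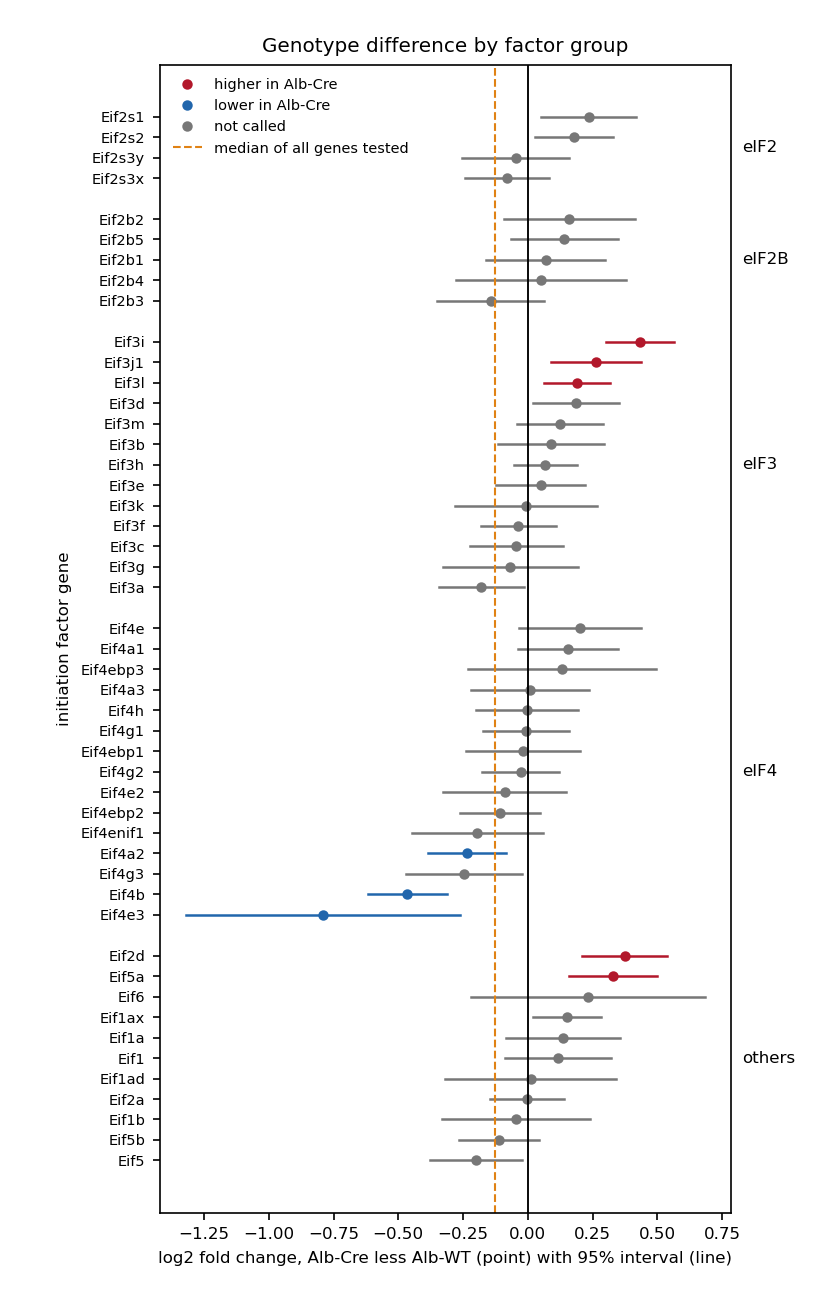
Points give the log2 fold change of each tested initiation factor gene (Alb-Cre less Alb-WT) and lines its 95% interval, by factor group, with the dashed line at the median of all genes tested. The 5 genes called higher are in eIF3 and the others group, and the 3 called lower are all in eIF4, with Eif4e3 having the widest interval (-1.32 to -0.26).

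All 3 initiation factor genes that fell are eIF4 genes, out of 15 tested (20.0%, where 23.3% of all genes fell), and none of the 15 rose. The share that fell in eIF4 was thus near that of all genes. Eif4b encodes the cofactor that stimulates the helicase eIF4A. Its level was 41.1, 37.3, 41.8 and 36.8 FPKM in Alb-Cre and 56.2, 51.0, 55.0 and 55.8 FPKM in Alb-WT. All Alb-Cre values lay below all Alb-WT values, with means of 39.2 ± 2.56 and 54.5 ± 2.37 FPKM (SD, n = 4 each), a log2 fold change of -0.47 (SE 0.07, 95% interval -0.62 to -0.31, limma adjusted p = 0.00241). It was called in all 18 alternatives, at -0.55 to -0.30. Eif4h, which resembles Eif4b in part and also stimulates the helicase, had a log2 fold change near 0 (23.2 ± 2.86 and 23.1 ± 0.902 FPKM, SD, n = 4 each).

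The helicase itself is encoded by a pair of close paralogs. Eif4a2 was at 42.5, 40.4, 39.7 and 36.6 FPKM in Alb-Cre and 48.2, 47.8, 48.3 and 43.8 FPKM in Alb-WT. The groups did not overlap (log2 fold change -0.24, SE 0.07, limma adjusted p = 0.0286). This call depended on scaling: with median-of-ratios scaling the difference was -0.07 (adjusted p = 0.607), with the gene length correction -0.08 (adjusted p = 0.535), and 5 of the 8 libraries each removed it when left out (Alb-Cre replicate 2 or 3 and Alb-WT replicate 1, 2 or 3, adjusted p up to 0.0808). Eif4a1 was at 66.6, 63.9, 63.6 and 81.0 FPKM in Alb-Cre and 63.6, 62.3, 60.5 and 59.0 FPKM in Alb-WT. Alb-Cre replicate 4 was the highest, and the difference was 0.16 (limma adjusted p = 0.183), or 0.08 without it. The coding sequences are 78.2% identical, with no identical run longer than 20 bases. Eif4a3, which acts in the exon junction complex and not in initiation, was at 0.01.

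Eif4e3, a homolog of the cap-binding protein eIF4E, showed the largest fall and the least uniform one. Its level was 1.75, 1.95 and 1.43 FPKM in Alb-Cre replicates 1 to 3, 4.63 FPKM in replicate 4 and 4.86, 4.89, 4.78 and 3.98 FPKM in Alb-WT. Replicate 4 lay within the Alb-WT range, and replicates 1 to 3 lay below every other library. The Alb-Cre mean was 2.44 ± 1.48 FPKM and the Alb-WT mean 4.63 ± 0.433 FPKM (SD, n = 4 each), with a log2 fold change of -0.79 (SE 0.23, limma adjusted p = 0.0334). Without replicate 4 it was -1.06 (limma adjusted p = 3.09e-06), and without any other library the call was lost (adjusted p up to 0.0898). These values rest on 129 to 478 fragments per library, and 14.8% of the merged exon length is shared with the annotated gene Gm20696.

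Summed markers of several other cell types were also low in Alb-Cre replicates 1 to 3 and higher in replicate 4, though not every single marker had this order. The 8 genes of monocytes and macrophages summed to 102.64 to 112.76 FPKM in Alb-Cre replicates 1 to 3, to 474.56 FPKM in replicate 4 and to 488.61 to 515.16 FPKM in Alb-WT, and 7 of 8 were called lower. The neutrophil markers in the table summed to 6.62 to 7.01, 80.98 and 252.46 to 317.56 FPKM in the same order, and all 4 tested were lower, with Camp, Ltf, Mpo and Ngp missing from the table. Markers of T and NK cells summed to 1.31 to 2.14, 14.09 and 9.09 to 12.02 FPKM, with 1 of 5 tested called lower, and those of B and plasma cells to 2.95 to 3.7, 15.3 and 5.88 to 7.1 FPKM, with 0 of 3. Stellate cell markers summed to 32.24 to 34.97, 44.32 and 54.84 to 58.28 FPKM, with 3 of 6 called lower. The collagen gene Col1a1 among them was at 1.53, 1.80 and 1.71 FPKM, 6.76 FPKM in replicate 4 and 5.67 to 6.02 FPKM in Alb-WT. Col3a1, Lrat and Des were also highest of their group in replicate 4. Dcn, the most abundant, was not, at 23.1, 24.4, 22.7 and 23.6 FPKM in Alb-Cre and 35.2 to 37.8 FPKM in Alb-WT. Reln was lowest in replicate 4. Cholangiocyte markers summed to 36.24 to 41.04, 61.8 and 79.0 to 92.22 FPKM, with 4 of 4 tested called lower. Most of each sum was Spp1, at 36.7, 36.4 and 32.3 FPKM, 55.7 FPKM and 70.9 to 83.7 FPKM. Sox9 and Epcam had the same order at lower levels. Krt19 did not, with replicate 4 at 1.29 FPKM and replicates 1 to 3 at 0.888 to 1.48 FPKM. The sum of sinusoidal endothelium markers did not have this order, at 32.07 to 34.54, 26.99 and 32.68 to 35.14 FPKM (3 of 6 called lower). Clec4g, the most abundant of them, leaned higher (log2 fold change 0.35, limma adjusted p = 0.0603), and the other 5 had negative log2 fold changes. Stab2 did have the order, at 2.49, 2.34 and 2.72 FPKM, 3.33 FPKM and 4.41 to 4.51 FPKM. So did Stab1, at 2.67, 2.62 and 2.57 FPKM, 2.87 FPKM and 3.25 to 3.56 FPKM. Lyve1, Pecam1 and Kdr did not. Lyve1, called lower (-0.81, limma adjusted p = 0.000278), was at 2.58, 2.86 and 2.36 FPKM, 2.52 FPKM and 4.84 to 5.79 FPKM. Kdr was lowest in replicate 4, at 2.44 FPKM. The erythroid genes summed to 100.99 to 151.25, 55.19 and 248.25 to 359.27 FPKM (1 of 2 called lower), without this order. The part of these cells in the Eif4e3 difference was not tested.

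Eif4e, the main cap-binding protein gene, did not pass and was at 8.82 ± 1.13 FPKM in Alb-Cre and 7.53 ± 0.792 FPKM in Alb-WT (SD, n = 4 each, log2 fold change 0.20, limma adjusted p = 0.160). Eif4e2, which encodes a cap-binding repressor, was at -0.09. The scaffold gene Eif4g1, whose product bridges the cap to the ribosome, was at -0.01, and the related Eif4g2 was at -0.03. Eif4g3 was at 4.46, 4.43 and 4.10 FPKM in Alb-Cre replicates 1 to 3, 5.94 FPKM in replicate 4 and 5.54, 5.92, 5.98 and 5.58 FPKM in Alb-WT. It had the pattern of Eif4e3 on a smaller scale, with a difference of -0.25 (limma adjusted p = 0.0808) and of -0.34 without replicate 4 (limma adjusted p = 0.000579). Eif4enif1, which carries eIF4E into the nucleus, was at -0.19 (limma adjusted p = 0.198) and at -0.29 without replicate 4 (limma adjusted p = 0.0113).

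The eIF4E-binding proteins block cap-dependent initiation unless mTORC1 phosphorylates them. Eif4ebp1, Eif4ebp2 and Eif4ebp3 had log2 fold changes of -0.02, -0.11 and 0.13 and did not pass. Eif4ebp2 was the most abundant of these, at 41.6 ± 3.25 FPKM in Alb-Cre and 44.8 ± 1.03 FPKM in Alb-WT (SD, n = 4 each), and Eif4ebp3 the least, from 31 to 67 fragments per library, with 67.3% of its length shared with another annotated gene. The median over the eIF4 genes was -0.03, and it was -0.11 with a common FPKM sum, -0.01 with quantile normalization, 0.14 with median-of-ratios scaling and 0.02 with the gene length correction, so the sign of the group median depended on the scaling.

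**Figure D3:**
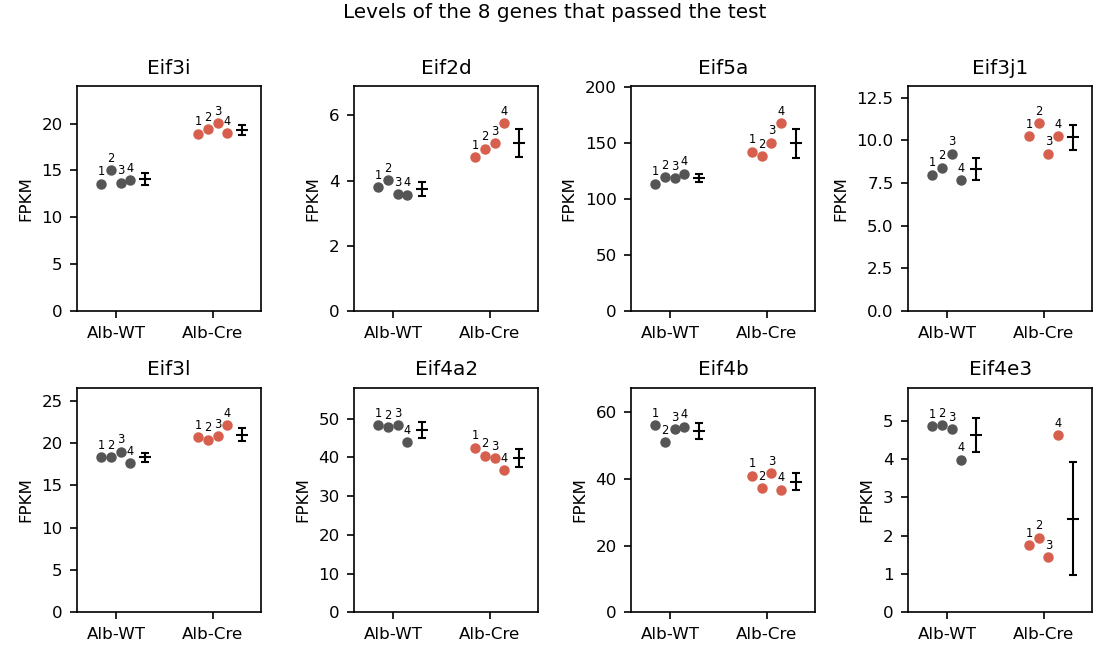
FPKM of the 8 genes that passed the test, with a point and its replicate number for each library and a bar for the mean ± SD of each group, on axes that start at 0. Eif3i, Eif2d, Eif5a, Eif3l, Eif4a2 and Eif4b show no overlap between groups, Eif3j1 touches in replicate 3, and replicate 4 of Alb-Cre lies within the Alb-WT range for Eif4e3.

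Ratios between related genes within a library do not move with a factor that scales all its genes alike. Of 10 pairs compared, 3 were lower in every Alb-Cre than in every Alb-WT library. Eif4a2 relative to Eif4a1 was 0.587 ± 0.0898 in Alb-Cre and 0.767 ± 0.0235 in Alb-WT (SD, n = 4 each), a log2 difference of -0.40, or -0.28 without Alb-Cre replicate 4. Eif4b relative to Eif4h was 1.71 ± 0.255 and 2.36 ± 0.0632 (SD, n = 4 each), a difference of -0.47, or -0.36 without replicate 4. Eif4e3 relative to Eif4e was 0.270 ± 0.142 and 0.615 ± 0.0188 (SD, n = 4 each), a difference of -1.31, or -1.63 without replicate 4. Each of these had an exact two-sided permutation p of 0.0286, the smallest that 70 assignments allow, and 0.0952 after adjustment over the 10 pairs. With 3 pairs at the smallest p the adjusted value could not be lower. Not passing the correction therefore says nothing about these pairs. Their numerators are the 3 genes called lower in the same libraries, so the ratios are not separate evidence. Eif4g3 relative to Eif4g1 differed by -0.29 (exact permutation p = 0.0571, adjusted 0.143), and the remaining pairs had exact p-values of 0.143 to 0.857.

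Among the remaining factors, 2 of 11 tested genes rose (18.2%, where 8.48% of all genes rose) and none fell (23.3% of all genes fell), and the median was 0.12 (0.03 to 0.28 under the other scalings). Eif2d encodes a factor that can place transfer RNA on the ribosome without eIF2 and helps to recycle small subunits. It was at 4.72, 4.97, 5.14 and 5.75 FPKM in Alb-Cre and 3.79, 4.01, 3.58 and 3.56 FPKM in Alb-WT, with no overlap. Alb-Cre averaged 5.15 ± 0.438 FPKM and Alb-WT 3.74 ± 0.210 FPKM (SD, n = 4 each), a log2 fold change of 0.37 (SE 0.07, limma adjusted p = 0.00815). It was called in all 17 alternatives in which it was tested, at 0.30 to 0.55.

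Eif5a encodes a protein with the modified residue hypusine that relieves stalled ribosomes during elongation and termination, and it was among the most abundant of these genes. Its level was 142, 138, 150 and 167 FPKM in Alb-Cre and 114, 119, 119 and 122 FPKM in Alb-WT. The lowest Alb-Cre library lay above the highest Alb-WT library, with means of 149 ± 12.9 and 118 ± 3.60 FPKM (SD, n = 4 each) and a log2 fold change of 0.33 (SE 0.07, limma adjusted p = 0.0139). The call held in 16 of 18 alternatives and was lost with a common FPKM sum (adjusted p = 0.0760) and with quantile normalization (adjusted p = 0.135). Its paralog Eif5a2 was listed at 0.0111 to 0.225 FPKM, from 2 to 44 fragments, and was not tested.

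Start codon selection depends on eIF1, eIF1A, eIF5 and eIF5B. Eif1 was the most abundant initiation factor gene in Alb-WT, at 123, 133, 118 and 129 FPKM, and was at 148, 133, 149 and 117 FPKM in Alb-Cre. Replicate 4 was the lowest of all 8 libraries, unlike for most of these genes, and the difference was 0.12 (limma adjusted p = 0.334), or 0.19 without it (limma adjusted p = 0.0154). Eif1ax was at 7.56, 7.97, 7.91 and 7.20 FPKM in Alb-Cre and 6.59, 6.87, 6.80 and 6.91 FPKM in Alb-WT, without overlap but not past the threshold (0.15, limma adjusted p = 0.0742). Eif1a was at 0.14, Eif1b at -0.05 and Eif1ad, a nuclear relative of eIF1A, at 0.01.

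Eif5, the activator of GTP hydrolysis by eIF2, was at 26.7, 27.3, 24.7 and 31.3 FPKM in Alb-Cre and 32.5, 30.8, 33.1 and 30.2 FPKM in Alb-WT. Alb-Cre replicates 1 to 3 lay below all Alb-WT libraries and replicate 4 within them (-0.20, limma adjusted p = 0.0781, and -0.26 with an adjusted p of 0.00204 without it). Eif5b, which joins the ribosomal subunits, was at -0.11, and Eif2a, an alternative initiator tRNA factor, at 0.00. Eif6, which keeps the large ribosomal subunit from joining too early, was at 9.50, 8.37 and 9.36 FPKM in Alb-Cre replicates 1 to 3, 18.0 FPKM in replicate 4 and 8.77, 9.68, 8.54 and 9.21 FPKM in Alb-WT. The other Alb-Cre libraries lay close to Alb-WT, and the difference of 0.23 (limma adjusted p = 0.383) was 0.00 without replicate 4.

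**Figure D4:**
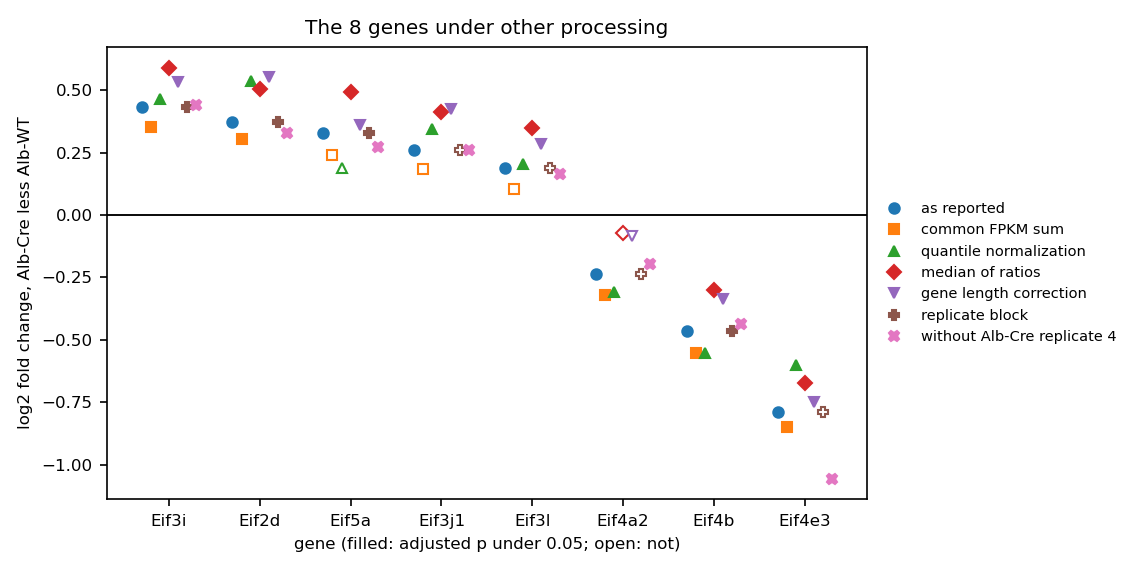
Log2 fold change of the 8 genes as reported, under 4 other scalings or corrections, with the replicate number as a block and without Alb-Cre replicate 4, with filled symbols where the adjusted p was under 0.05. No gene changes sign, Eif3i, Eif2d and Eif4b stay filled throughout, and Eif4a2 comes closest to 0, at -0.07 with median-of-ratios scaling.

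Genes that control these factors were read from lists that are not part of the initiation factor family. Of 12 genes for eIF2 kinases, their modulators and the eIF2 phosphatase, 1 rose (8.3%) and 3 fell (25.0%), with a median log2 fold change of -0.20. With all 8 libraries these shares were near those of all genes, of which 8.48% rose and 23.3% fell, with a median of -0.13. Without Alb-Cre replicate 4, 1 of the 12 rose and 9 fell, where 15.2% of all genes rose and 46.1% fell. The median was then -0.24, and -0.16 over all genes tested. Dnajc3, an endoplasmic reticulum co-chaperone first described as an inhibitor of eIF2 kinases, was at 76.2, 75.7, 75.9 and 83.1 FPKM in Alb-Cre and 56.7, 55.6, 55.1 and 52.7 FPKM in Alb-WT (log2 fold change 0.49, SE 0.06, limma adjusted p = 0.00106). Impact, an inhibitor of the amino acid sensing kinase GCN2, was at 1.84, 2.09, 1.60 and 2.55 FPKM and 3.74, 3.34, 4.24 and 4.23 FPKM (-0.70, SE 0.11, limma adjusted p = 0.00345). Neither overlapped between groups. The double-stranded RNA kinase gene Eif2ak2 (-0.41, limma adjusted p = 0.0150) and the phosphatase gene Ppp1cc (-0.35, limma adjusted p = 0.0412), named after their values were seen, also fell. Ppp1cc was called in only 8 of 18 alternatives, losing the call with median-of-ratios scaling, with the gene length correction, with the replicate block and without any library other than Alb-Cre replicate 4 (adjusted p up to 0.113), and Eif2ak2 lost it with the replicate block (adjusted p = 0.0531).

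Of 23 genes of mTORC1 and cap-binding control, 3 rose (13.0%) and 5 fell (21.7%), with a median of -0.14, again near the 8.48%, 23.3% and -0.13 of all genes. Without Alb-Cre replicate 4, 4 rose and 10 fell, where 15.2% of all genes rose and 46.1% fell. The median was then -0.15. Sesn2, an inhibitor of mTORC1, was at 1.94 ± 0.416 FPKM in Alb-Cre and 3.96 ± 0.252 FPKM in Alb-WT (SD, n = 4 each, log2 fold change -0.76, limma adjusted p = 0.00167). Ddit4, another inhibitor of mTORC1 and named after its value was seen, was at 13.4, 8.25, 12.6 and 7.29 FPKM in Alb-Cre and 22.9, 28.6, 25.8 and 30.2 FPKM in Alb-WT (-1.32, limma adjusted p = 0.00205). In neither did the groups overlap. Paip2b, an inhibitor of the poly(A)-binding protein, was at 4.57 ± 0.136 and 3.30 ± 0.170 FPKM (SD, n = 4 each) and rose (0.37, limma adjusted p = 0.00393). The other calls are named with their values known. Pdcd4, an inhibitor of the eIF4A helicase, rose (0.31, limma adjusted p = 0.0110) and was called in all 18 alternatives. Rps6, a ribosomal protein phosphorylated downstream of mTORC1, rose by 0.24 (limma adjusted p = 0.0176), in 12 of 18 alternatives (adjusted p up to 0.103). Tsc1, a brake on mTORC1, had a difference of -0.46 (limma adjusted p = 0.00850), lost with quantile normalization or the gene length correction (adjusted p up to 0.0944). Larp1, a repressor of messenger RNAs for the translation machinery, had -0.28 (limma adjusted p = 0.0131), lost with median-of-ratios scaling or the gene length correction (adjusted p up to 0.326). The S6 kinase gene Rps6kb1 had -0.29 (limma adjusted p = 0.0329), called in 6 of 17 alternatives and among single libraries left out only without Alb-Cre replicate 4 (adjusted p up to 0.223).

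Other steps of translation were read in the same way, against the 8.48% of all genes that rose and the 23.3% that fell. Of 12 initiation helpers outside the Eif names 1 fell (8.3%) and none rose, the helicase gene Ddx3x, at 28.3, 27.6 and 26.5 FPKM in Alb-Cre replicates 1 to 3, 37.7 FPKM in replicate 4 and 35.7 to 41.5 FPKM in Alb-WT (-0.38, limma adjusted p = 0.0312). This call was lost with median-of-ratios scaling, with the gene length correction and without Alb-Cre replicate 1, 2 or 3 or Alb-WT replicate 1, 2 or 3 (adjusted p up to 0.0857). Its Y-linked counterpart Ddx3y also fell, from 11.9 ± 1.70 FPKM in Alb-WT to 8.41 ± 0.446 FPKM in Alb-Cre (SD, n = 4 each, -0.44, limma adjusted p = 0.0133), a call that was lost with median-of-ratios scaling or the gene length correction (adjusted p up to 0.0550). Of 13 tested elongation and termination factors 2 rose (15.4%) and none fell, with a median of 0.07, and Eef1g, a subunit of the eEF1 complex, went from 62.4 ± 3.41 to 84.6 ± 6.94 FPKM (SD, n = 4 each, 0.43, limma adjusted p = 0.00596). The other was Eef1b2, of the same complex (0.45, limma adjusted p = 0.00598), and both were called in all 18 alternatives. Of 8 mitochondrial initiation and elongation factors 3 rose (37.5%) and none fell, with a median of 0.11, and Tsfm, the exchange factor of mitochondrial elongation, went from 3.79 ± 0.271 to 6.02 ± 0.467 FPKM (SD, n = 4 each, 0.55, limma adjusted p = 0.00177). The other 2 were the elongation factor genes Gfm1 (0.28, limma adjusted p = 0.00705) and Tufm (0.28, limma adjusted p = 0.0182), of which Tufm lost its call with a common FPKM sum and without Alb-Cre replicate 3 or Alb-WT replicate 1 or 2 (adjusted p up to 0.119).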

How the data were processed

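The deposited table gave FPKM per gene as the authors computed it, for 8 libraries of mouse liver total RNA. The aligner was HISAT2 2.0.5, per the submitters' processing notes, which list mm39 and hg38 without a role. No counter, annotation or strand setting is stated in these sources. The sample labels also name 10x Genomics, which a table with a single column per library does not resemble.

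The FPKM steps gave whole fragments for 100% of 13703 rows (tolerance 1e-08), and 12726 implied lengths equal a GENCODE M21 merged exon length. The totals behind the FPKM values were 32793770 to 39157210.

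Log2(FPKM + 1) was fitted with limma 3.58.1 (R 4.3.3, empirical Bayes with trend) on genotype, over the 11077 rows averaging 0.5 FPKM or more. Calls had a Benjamini-Hochberg adjusted p under 0.05. Fold changes understate low genes. Pair ratios used an exact two-sided permutation of the group labels. Named genes were Bicd2, every tested initiation factor gene and, of each list of other genes, the called gene with the smallest p in each direction. Members, pairs and lists were chosen with earlier results of these data known. Coding identity came from GENCODE M21 transcripts. Python 3.11.15 with pandas 2.3.3 and scipy 1.17.1 did the rest. Alternatives were another pseudocount (0.1), other filters (none, 1 and 5 FPKM), 4 scalings or corrections, voom on the recovered fragments, a replicate block and leaving out each library.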

Additional observations from a re-analysis of the deposited data

Results flagged for a closer look

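Within groups of 4 libraries, 9 of 98 gene-by-group checks had a library whose gap to its nearest neighbour exceeded Dixon's 95% critical value, where chance gives about 1 in 20. In Alb-WT there were 6. Replicate 4 was low for Eif4a2 (43.83 FPKM, the others 47.76 to 48.33), Eif4e (6.365 FPKM, the others 7.807 to 8.137), Eif4e3 (3.981 FPKM, the others 4.779 to 4.888) and Eif5b (9.121 FPKM, the others 10.49 to 10.73), and high for Eif4ebp1 (18.57 FPKM, the others 15.89 to 16.17). Replicate 2 was high for Eif3k (19.46 FPKM, the others 16.32 to 16.54). In Alb-Cre there were 3. Replicate 2 was low for Eif1ad (3.83 FPKM, the others 6.231 to 6.651), and replicate 4 was low for Eif2a (6.491 FPKM, the others 7.338 to 7.516) and high for Eif6 (17.98 FPKM, the others 8.368 to 9.502).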

How the results depend on the processing

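Of 1194 single-gene values over 68 genes and 18 alternatives, 1006 kept direction and side of the threshold, 81 lost and 36 gained a call, and 71 changed sign in genes called in neither fit. No gene changed sign where it was called in either fit. With a common FPKM sum, 2 initiation factor genes were higher, 4 were lower without overlap, 623 of all genes were higher, and the medians were -0.016 for eIF2, -0.019 for eIF3 and 0.029 for the others group. With median-of-ratios scaling, 15 were higher, 19 were higher and 1 lower without overlap, 1723 and 1658 of all genes were higher and lower, and the medians were 0.220 for eIF2, 0.217 for eIF2B, 0.231 for eIF3, 0.135 for eIF4 and 0.281 for the others group. With quantile normalization, 10 were higher and 4 lower without overlap, and 1554 and 1469 of all genes were called. With the gene length correction, 12 were higher, 16 were higher and 1 lower without overlap, 1504 of all genes were lower, and the medians were 0.210 for eIF2 and 0.170 for eIF3. With a mean of at least 5 FPKM, 981 of all genes were lower, fewer genes being tested. The share of lower genes among all calls was 73.3%, and 82.9%, 49.0%, 48.6%, 51.8% and 55.7% under these 5 settings. The cause of these moves was not tested. The share of all genes without overlap was taken only in the fit as reported. The counts without overlap given here, and those on leaving out libraries, therefore have no share to be read against. They are not a result about the initiation factor genes.

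With the replicate block, 3 initiation factor genes were higher and 1 lower, and 613 and 1631 of all genes. Deviations of same-numbered libraries correlated at -0.065, -0.054, -0.097 and 0.013, and those of other pairs at -0.182 to 0.135. No Alb-Cre library correlated best with the Alb-WT library of its own number. These values gave no sign of pairing by number, but so few libraries cannot exclude it. Under the block the calls of Eif3j1, Eif3l, Eif4a2 and Eif4e3 were lost.

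On leaving out each library in turn, 3 to 11 initiation factor genes were higher and 1 to 9 lower, 6 to 11 were higher and 2 to 9 lower without overlap, and 546 to 1679 and 1205 to 5112 of all genes were called. The highest counts of calls were without Alb-Cre replicate 4. The medians ranged from 0.035 to 0.110 for eIF2, 0.003 to 0.132 for eIF2B, 0.052 to 0.083 for eIF3, -0.084 to -0.014 for eIF4 and 0.038 to 0.143 for the others group. Among the tested genes, Eif4ebp3, Eif4e3, Eif1b and Eif2b3 had the fewest fragments, with minima of 31, 129, 186 and 191 per library.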
